A study of Mus musculus with 4 samples.

Results

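Kinesins are the molecular motors that carry cargo along microtubules, and the hippocampal expression of their genes was compared between wildtype mice and mice lacking the long noncoding RNA Malat1. The kinesin genes were taken by name: every gene whose symbol begins with Kif or Kifc followed by a digit, together with the light chains Klc1, Klc3 and Klc4. Klc2, Kif21b and Kifc1, which the rule would also cover, had no row with their symbol, and the row of Kif18b lists its symbol under several gene identifiers, so these genes were not analysed here. The rule gave 43 genes of the 20707 that carry a symbol of their own in the table, and these 43 genes have 55 rows. A row is a transcript cluster, the array's summary of a putative gene, and each gene was represented by its brightest row. Of the 43, 41 encode motors or light chains, while Kif16bos is an opposite-strand transcript at the Kif16b gene and Kif4-ps is a pseudogene.

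RNA came from whole dissected hippocampi of 4 untreated male C57BL/6 mice aged 3 months, 2 wildtype and 2 Malat1 knockout. Each animal's RNA was hybridised to a separate mouse exon array from Affymetrix. A label also calls the material neurons, but markers of glia and vessels were above the filter level too. The series describes the animals as littermate pairs without saying which arrays form a pair, and how Malat1 was deleted is not given in the sources used here. In dissected tissue, fewer cells of a type and less RNA per cell cannot be told apart. Malat1 itself read 11.19 and 11.25 on the log2 scale in wildtype and 8.53 and 8.70 in knockout, a 6.10-fold lower signal (limma adjusted p = 0.00639), as the genotype labels would have it. Knockout replicate 2 stood apart from the other arrays: the median size of the gap between a pair of arrays was 0.076 to 0.083 with it and 0.047 to 0.057 without it. All 12 listed markers of hippocampal principal neurons were above the filter level defined in the next paragraph.

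Kinesin motors couple the hydrolysis of ATP to steps along a microtubule, in most families toward its plus end. In neurons, whose axons and dendrites lie far from the cell body, kinesins deliver synaptic vesicle precursors, mitochondria, receptors and messenger RNA. Other families depolymerise microtubules, work in cilia or build the mitotic spindle. A gene counted as above the filter when the mean of a row over the 4 arrays reached 5.70 on the log2 scale, the 25th percentile of all rows with 1 symbol. All 18 cargo transport genes, all 6 genes of microtubule dynamics and signalling and all 3 genes of motile cilia were above it, and 11 of 13 cell division genes were below it, where 77.2% of all named genes were above it. Kif22 (5.80) and Kif12 (5.92) lay just inside the filter, and Kif16bos (5.62) and Kif24 (5.50) just outside. The classes were assigned by textbook roles, with earlier results of these data known, and the levels of different rows were not compared with each other.

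**Figure D1:**
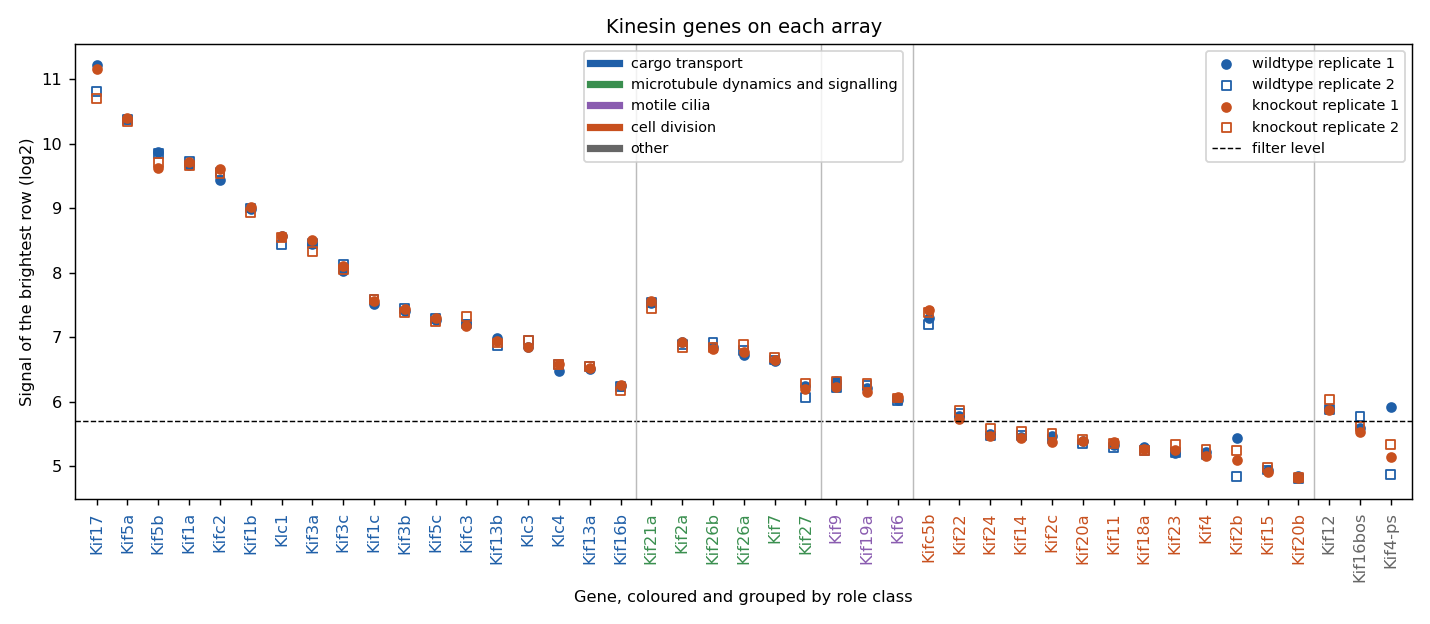
Log2 signal of the brightest row of each of the 43 kinesin genes on each of the 4 arrays, grouped by role class along the horizontal axis, with the filter level of 5.70 as a dashed line. The arrays of a gene lie close together for most genes, and 11 of the 13 cell division genes sit under the line.

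No kinesin gene differed between knockout and wildtype hippocampus by a margin that passed the test. Among 15995 genes tested together with limma, 0 of the 30 kinesin genes above the filter were called at an adjusted p under 0.05, where 0.00625% of all genes were called, namely Malat1 alone. The limma adjusted p was 1 for each of the 30. At an unadjusted p under 0.05 there were 2 of 30, Kif5b and Kifc5b, beside 3.86% of all genes. The 30 values were split evenly, 15 above 0 and 15 below, with a median log2 difference of -0.00043 beside -0.0011 for all genes. The 2 knockout arrays did not overlap the 2 wildtype arrays in 4 of the 30, 3 higher and 1 lower, beside 29% of all genes tested.

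The intervals put limits on what could have been missed. For 26 of the 30 genes the 95% interval of the difference lay within 1.2-fold in either direction, and for 29 of the 30 it lay within 1.5-fold. Over all genes tested the same shares were 71.1% and 95.9%. Kif17 was the gene with the interval outside 1.5-fold. These limits are folds of array signal, and the number of arrays limits their precision.

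**Figure D2:**
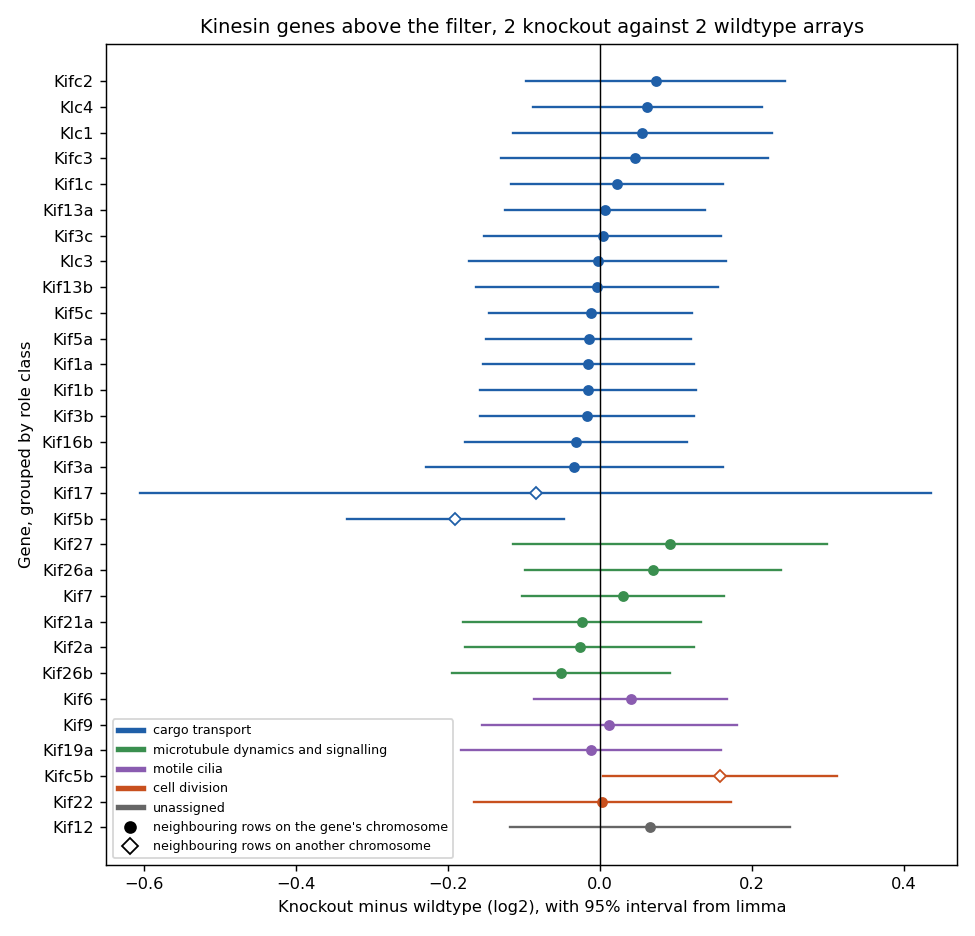
Knockout minus wildtype log2 difference (horizontal axis) with its 95% limma interval for the 30 kinesin genes above the filter, grouped by role class, from 2 arrays per genotype. The intervals of Kif5b and Kifc5b do not reach 0, that of Kif17 is the widest, and these 3 genes are drawn as open diamonds because the rows numbered next to theirs belong to other chromosomes.

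Kinesin-1, the conventional kinesin of fast axonal transport, is a tetramer of heavy chains encoded by Kif5a, Kif5b and Kif5c with light chains that bind cargo. Kif5a, the neuronal heavy chain mutated in hereditary spastic paraplegia, read 10.39 and 10.38 in wildtype and 10.40 and 10.34 in knockout, a log2 difference of -0.02 (95% interval -0.15 to 0.12). Kif5c, also enriched in neurons, read 7.27 and 7.29 in wildtype and 7.29 and 7.24 in knockout (-0.01, -0.15 to 0.12). The genotypes overlapped in each of these genes, and the arrays lay close together. Kif5b, the ubiquitous heavy chain, was the kinesin gene with the smallest p. Its brightest row read 9.87 and 9.85 in wildtype (mean 9.86 ± 0.02, SD, n = 2) and 9.63 and 9.71 in knockout (9.67 ± 0.05, SD, n = 2). Both knockout arrays were below both wildtype arrays, a log2 difference of -0.19 ± 0.06 (SE; 95% interval -0.33 to -0.05), or 1.14-fold. The unadjusted limma p was 0.0184, rank 244 of 15995, and the limma adjusted p was 1. With 1 array left out, the log2 difference ran from -0.23 to -0.15, and the unadjusted p stayed under 0.05 when that array was knockout replicate 2 and did not when it was any of the others. Such a fit has 1 array in a genotype, which is assumed to vary like the other genotype's arrays. This difference is that of 1 row of 5, and its size varied with the row taken. The other rows stood at -0.34, -0.05, -0.20 and -0.05, from brighter to dimmer. The mean over the Kif5b rows above the filter gave -0.19 (limma, unadjusted p = 0.0132, adjusted p = 0.9999). Where these rows may lie is described further on.

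Of the light chains, Klc1, the main neuronal one, read 8.57 and 8.43 in wildtype and 8.56 and 8.55 in knockout (0.06, 95% interval -0.12 to 0.23). Klc3, known from sperm tails, read 6.85 and 6.95 in wildtype and 6.85 and 6.94 in knockout (-0.00). Klc4 read 6.47 and 6.57 in wildtype and 6.58 and 6.58 in knockout (0.06, -0.09 to 0.21), and here the knockout arrays were above both wildtype arrays by a narrow margin. In Klc1 and Klc3 the genotypes overlapped.

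The kinesin-3 motors move synaptic vesicle precursors and mitochondria. Kif1a, the motor of synaptic vesicle precursors, read 9.68 and 9.73 in wildtype and 9.71 and 9.67 in knockout, a log2 difference of -0.02 (95% interval -0.15 to 0.12). Kif1b, whose isoforms carry mitochondria and vesicle precursors, read 8.98 and 9.01 in wildtype and 9.02 and 8.94 in knockout (-0.02, -0.16 to 0.13). In both genes the lowest array was knockout replicate 2, and the genotypes overlapped. The endosomal motor Kif16b read 6.25 and 6.24 in wildtype and 6.25 and 6.17 in knockout (-0.03), and Kif13a, Kif13b and Kif1c stood between -0.00 and 0.02.

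Kinesin-2 serves dendritic and ciliary transport. The heterotrimer subunit Kif3a read 8.45 and 8.45 in wildtype and 8.51 and 8.32 in knockout (-0.03, 95% interval -0.23 to 0.16), so the knockout arrays lay on either side of wildtype. Its partner Kif3b read 7.41 and 7.45 in wildtype and 7.44 and 7.38 in knockout (-0.02), and the neuronal partner Kif3c read 8.03 and 8.12 in wildtype and 8.11 and 8.05 in knockout (0.00). Kif17, the dendritic motor that carries the NMDA receptor subunit encoded by Grin2b, was the kinesin gene above the filter with the largest spread within a genotype. Its brightest row read 11.23 and 10.81 in wildtype and 11.16 and 10.71 in knockout. The rows numbered next to this row belong mostly to another chromosome, as described further on. The arrays numbered 1 were high and those numbered 2 low in each genotype. The difference between genotypes was -0.09 with a 95% interval of -0.61 to 0.44, so that anything from 1.52-fold lower to 1.35-fold higher lies within it. This fit has no term for the replicate number, so the gap between the numbered arrays counts as spread within a genotype and widens the interval.

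The C-terminal motors of the transport class, which walk toward the minus end, are Kifc2 and Kifc3. Kifc2, a motor of neuronal dendrites, read 9.44 and 9.56 in wildtype and 9.61 and 9.54 in knockout (0.07, 95% interval -0.10 to 0.24), with the genotypes overlapping. Kifc3, linked with the Golgi and cell junctions, stood at 0.05. Over the 18 transport genes, 7 lay above 0 and 11 below, with a median of -0.01 and a range of -0.19 to 0.07. An unadjusted limma p under 0.05 was found in 1 of 18, Kif5b, beside 3.86% of all genes tested.

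Of the 6 motors that act on microtubule growth and signalling, 0 had an unadjusted limma p under 0.05, beside 3.86% of all genes tested. With 6 genes, a count of 0 does not set the class apart from that share. Kif2a, a microtubule depolymerase that trims axon branches, read 6.93 and 6.89 in wildtype and 6.93 and 6.84 in knockout (-0.03, 95% interval -0.18 to 0.12). Kif21a, which restrains microtubule growth, read 7.52 and 7.54 in wildtype and 7.56 and 7.45 in knockout (-0.02, -0.18 to 0.13). The genotypes overlapped in each. Kif26b, an atypical family member, read 6.84 and 6.92 in wildtype and 6.82 and 6.85 in knockout (-0.05), and its relative Kif26a read 6.72 and 6.80 in wildtype and 6.77 and 6.88 in knockout (0.07). Kif7, the ciliary regulator of Hedgehog signalling, stood at 0.03. Kif27, a relative of Kif7, had the highest value of this class at 0.09 (95% interval -0.12 to 0.30). It read 6.24 and 6.06 in wildtype and 6.20 and 6.29 in knockout, and wildtype replicate 2 was the low array. The class had 3 genes above 0 and 3 below.

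Motile cilia in this brain region are carried by the ependymal cells that line the ventricle. Kif9 stood at 0.01, Kif19a, which sets the length of motile cilia, at -0.01, and Kif6 at 0.04. In Kif6 the knockout arrays (6.07 and 6.06) were above the wildtype arrays (6.03 and 6.01), with a 95% interval of -0.09 to 0.17, and the gene was singled out for this after its values were seen. Of the ependymal markers, 5 of 7 with a row were above the filter and all 5 lay above 0, with a median of 0.05. Over all genes tested 49.2% lay above 0. The mean level of these markers was 6.09 and 6.15 in wildtype and 6.19 and 6.24 in knockout. At such levels knockout replicate 2 ran high against the other arrays over all genes tested. Its median was 0.05 for genes from 5.93 to 6.14 and 0.04 for genes from 6.14 to 6.35. The part of that array in the lean of the markers was not tested. The part of the ependymal cells in the ciliary kinesin values was not tested. Kif12, placed in none of the classes, read 5.89 and 5.88 in wildtype and 5.87 and 6.03 in knockout (0.07), and knockout replicate 2 was its high array.

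The cell division class holds the spindle motor Kif11, the midzone motors Kif4, Kif20a and Kif23, the kinetochore and chromosome motors Kif18a, Kif22 and Kif2c, and others. Its 11 genes below the filter had means between 4.82 (Kif20b) and 5.50 (Kif24). At this level a row may hold background alone, so their differences are given as a description from the fit without a filter. They ran from -0.02 in Kif18a to 0.08 in Kif23. Kif23, the motor of the cytokinetic midbody, read 5.21 and 5.21 in wildtype and 5.25 and 5.34 in knockout. Kif2b had the largest spread within a genotype of these 11, reading 5.43 and 4.84 in wildtype and 5.09 and 5.24 in knockout. The pseudogene Kif4-ps, outside the class, read 5.91 and 4.86 in wildtype. Kif23, Kif2b and Kif4-ps were picked after their values were seen. Of the 20 listed markers of dividing cells with a row, 10 were below the filter as well, Mki67, Top2a and Cdk1 among them.

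Above the filter in this class were Kif22 and Kifc5b. Kif22 read 5.78 and 5.81 in wildtype and 5.73 and 5.87 in knockout (0.00, 95% interval -0.17 to 0.17). Kifc5b, a minus-end-directed relative of the spindle motor Kifc1, read 7.30 and 7.19 in wildtype (7.25 ± 0.07, SD, n = 2) and 7.42 and 7.38 in knockout (7.40 ± 0.03, SD, n = 2). Both knockout arrays were above both wildtype arrays, a log2 difference of 0.16 ± 0.06 (SE; 95% interval 0.0039 to 0.31) with an unadjusted limma p of 0.0462 and a limma adjusted p of 1. With 1 array left out, again with 1 array in a genotype, the log2 difference ran from 0.11 to 0.21 and the unadjusted p was above 0.05 in each case. The row taken for Kifc5b matters, as it does for Kif5b. Kifc5b and Kifc1 are close paralogs, so the signal may be shared, and Kifc1 was not analysed here.

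The cell division kinesins had promoter letters in common that the choice of genes did not use. Genes switched on in the late cell cycle often carry a CCAAT box and a cell cycle homology region (CHR), elements read by NF-Y and by the DREAM and B-Myb complexes. RefSeq promoter windows of build GRCm38.p6, from 250 bases before to 50 bases after the start, were matched for 35 of the 43 genes. They were searched on both strands for CCAAT and for the CHR letters TTTGAA or TTCGAA, and no match of one motif overlapped a match of the other. The CHR letters were in 10 of 12 cell division genes, in 3 of the 23 other kinesin genes and in 21.7% of the 27025 genes in the table. CCAAT was in 8 of the 12, in 9 of the 23 and in 41.1% of all genes in the table. Both motifs were in 7 of the 12, in 2 of the 23 and in 8.61% of all genes in the table. Cell division genes with the CHR letters included Kif22 and Kifc5b, which were above the filter, and Kif18a and Kif2b had none. Matches were counted anywhere in the window, and the only CHR match of Kif14 begins 228 bases before the start. A match is a description of letters and not a binding site.

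Printed here are Kif11 (chr19:37376132-37376431, + strand) and Kif23 (chr9:61946750-61947049, - strand), whose pair of motifs lies close to the start, and for contrast the kinesin-1 gene Kif5c (chr2:49619036-49619335, + strand), which has neither. Capitals mark CCAAT or its reverse ATTGG and the CHR letters. In Kif11 the CCAAT match begins 45 bases and the CHR match 19 bases before the start. In Kif23 the CCAAT match begins 7 bases before it and the CHR match at base 3 of the transcribed part.
Kif11: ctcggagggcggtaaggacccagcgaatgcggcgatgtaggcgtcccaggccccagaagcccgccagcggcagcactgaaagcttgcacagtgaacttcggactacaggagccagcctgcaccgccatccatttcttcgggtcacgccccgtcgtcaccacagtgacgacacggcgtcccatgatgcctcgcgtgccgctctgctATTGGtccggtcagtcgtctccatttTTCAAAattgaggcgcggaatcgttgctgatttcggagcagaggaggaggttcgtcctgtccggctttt
Kif23: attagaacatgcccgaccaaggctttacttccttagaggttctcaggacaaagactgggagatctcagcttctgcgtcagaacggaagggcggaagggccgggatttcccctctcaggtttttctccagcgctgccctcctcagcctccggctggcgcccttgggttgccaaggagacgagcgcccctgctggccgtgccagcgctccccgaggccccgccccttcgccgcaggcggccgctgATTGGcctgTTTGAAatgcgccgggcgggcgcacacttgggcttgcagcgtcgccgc
Kif5c: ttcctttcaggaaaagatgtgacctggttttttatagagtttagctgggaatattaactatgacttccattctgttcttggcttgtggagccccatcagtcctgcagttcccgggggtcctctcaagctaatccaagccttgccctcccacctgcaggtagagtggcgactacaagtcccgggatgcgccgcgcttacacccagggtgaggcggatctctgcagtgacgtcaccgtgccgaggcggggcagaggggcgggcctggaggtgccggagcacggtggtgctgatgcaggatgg

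The choice of row matters for the kinesin genes with the smallest p. Of the 43 genes, 35 have 1 row and 8 have several. The annotation gives no position for a row, but row numbers run by chromosome: for 89.9% of 26440 rows whose gene is placed by RefSeq, the chromosome most frequent among the genes of the 10 rows on either side was the gene's own. For kinesin rows this held in 47 of 55. The 8 exceptions were 4 of the 5 Kif5b rows, 1 row each of Kif17, Kif26a and Kif3c, and 1 of the 2 Kifc5b rows. They include the brightest rows of Kif5b, Kif17 and Kifc5b. RefSeq places Kif5b on chromosome 18, whereas 17 of 19 placed neighbours of its brightest row are on chromosome 2. It places Kif17 on chromosome 4, and 18 of 20 neighbours of the bright Kif17 row are on chromosome 2. The neighbours of the bright Kifc5b row are scattered, with 5 of 20 on the most frequent chromosome. What these rows measure was not tested.

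With the row whose neighbours are on the gene's own chromosome, the differences of Kif5b and Kifc5b lay closer to 0. Kif5b then read 7.26 and 7.33 in wildtype and 7.30 and 7.19 in knockout, a log2 difference of -0.05 (95% interval -0.21 to 0.11) in place of -0.19, and the genotypes overlapped. Kifc5b read 6.44 and 6.40 in wildtype and 6.39 and 6.53 in knockout (0.04, -0.13 to 0.20) in place of 0.16. Kif17 read 6.33 and 6.47 in wildtype and 6.14 and 6.59 in knockout (-0.03, -0.43 to 0.37), and the arrays numbered 1 were no longer the high ones. No kinesin gene had an unadjusted p under 0.05 in that fit.

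In 6 of the 8 kinesin rows with neighbours on another chromosome both knockout arrays were below both wildtype arrays. The second Kif5b row, numbered next to the brightest, read 9.61 and 9.67 in wildtype and 9.33 and 9.28 in knockout (-0.34). Fitted among all rows above the filter, its unadjusted limma p was 0.00297 and its limma adjusted p was 1. A Kif26a row read 6.52 and 6.56 in wildtype and 6.43 and 6.15 in knockout (-0.25), opposite in sign to the 0.07 of its brightest row. The dim Kif3c row read 5.57 and 5.36 in wildtype and 5.17 and 5.25 in knockout (-0.25). Among the 47 kinesin rows on the gene's own chromosome, 0 had both knockout arrays below both wildtype arrays. Across all genes the same count was 21.4% of the 2665 rows with neighbours on another chromosome and 14% of the 23775 rows with neighbours on their own. Both knockout arrays were above both wildtype arrays in 6 of the 47 kinesin rows and in 1 of the 8. Across all genes that held in 15.8% of the 23775 rows and in 8.97% of the 2665. The median difference of the 2665 rows was -0.03 against 0.00, with knockout replicate 2 at -0.07 and knockout replicate 1 at -0.00 relative to the wildtype mean. In the 8 kinesin rows these medians were -0.22 for knockout replicate 2 and -0.15 for knockout replicate 1. Of the 8, 4 share the Kif5b symbol, whether they share probe sequence was not tested, and this grouping was made after the values were seen.

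**Figure D3:**
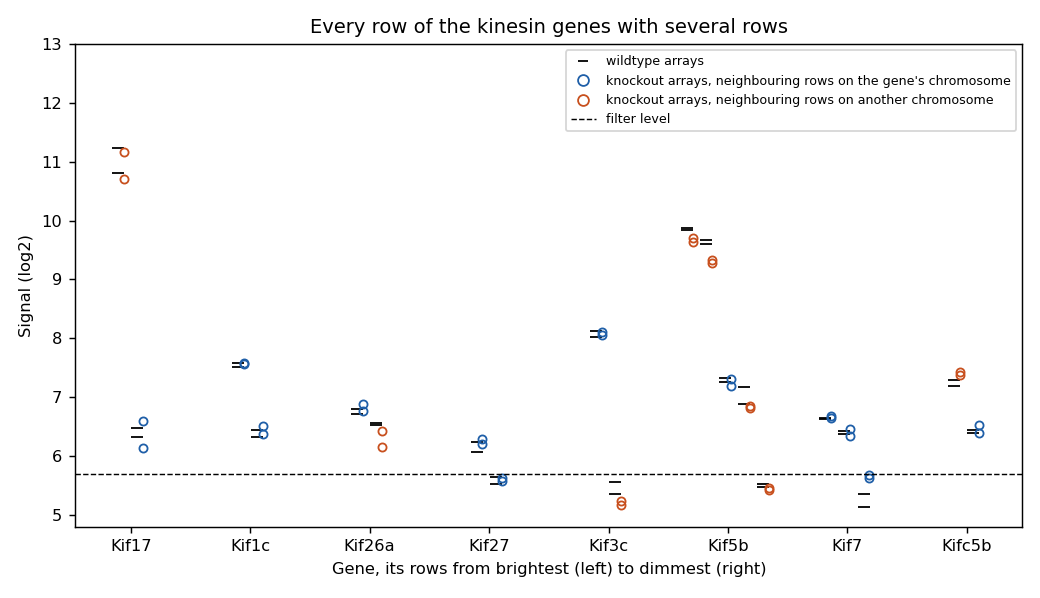
Log2 signal (vertical axis) of every row of the 8 kinesin genes with several rows, with wildtype arrays as dashes and knockout arrays as circles, blue where the rows numbered next to it belong to the gene's chromosome and orange where they belong to another. In 6 of the 8 orange rows both circles lie below both dashes, and in 0 of the 47 kinesin rows on their own chromosome, those of genes with 1 row included. Both knockout arrays were above both wildtype arrays in 6 of those 47 and in 1 of the 8.

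Among the remaining rows, the third Kif7 row, below the filter, read 5.35 and 5.13 in wildtype and 5.64 and 5.68 in knockout, a gap of 0.42 between the means that neither of the brighter Kif7 rows showed (0.03 and -0.00). The second rows of Kif1c and Kif27 stood at 0.06 and 0.01, against 0.02 and 0.09 for the brightest. Kif7 was singled out here after its values were seen.

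The deviation of knockout replicate 2 from the other arrays varied with the level of the gene. Against the mean of the other 3 arrays, that array was lower in 13 of the 20 kinesin genes at or above the median level of all genes tested (6.77) and in 1 of the 10 below it. The medians were -0.04 and 0.06. Over all genes tested the array was lower in 69.3% of those at or above that level, with a median of -0.04, and in 38.4% of those below it, with a median of 0.03. In the 10% of genes with the highest level the median was -0.06, and in the 10% with the lowest level it was 0.06. What sets this array apart was not tested. The farthest kinesin genes were Kif17 at -0.36 and Kif3a at -0.14 on the low side and Kif12 at 0.15 on the high side. In this Kif17 row, whose neighbours are on another chromosome, wildtype replicate 2 was low too, at -0.22. In the Kif17 row with neighbours on its own chromosome, knockout replicate 2 was the highest array, at 6.59. Without knockout replicate 2 the differences of Kif3a, Kif1b, Kif21a and Kif5a were 0.06, 0.02, 0.03 and 0.01, all above 0, where with it they were below. Of the other named genes, Kif5c, Kif1a, Kif3b, Kif17 (0.14), Kif2a and Kif16b also moved from below 0 to above it. Kif22 (-0.06) and Kif12 (-0.02) moved the other way. Kif5b stood at -0.23 without it.

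**Figure D4:**
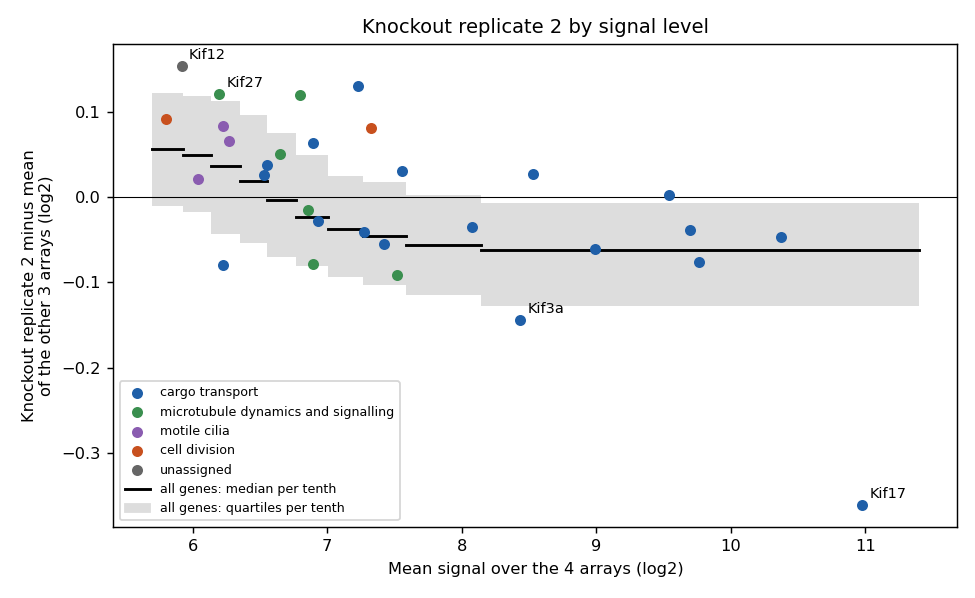
Knockout replicate 2 minus the mean of the other 3 arrays (vertical axis, log2) against the mean level over 4 arrays (horizontal axis, log2) for the 30 kinesin genes above the filter, with the median and quartiles of all 15995 genes in bins of equal gene number by level. Kinesin genes of low level lie mostly above 0 and those of high level mostly below, along the medians of all genes, with Kif17 at -0.36 the farthest. The Kif17 row drawn has neighbours on another chromosome, and wildtype replicate 2 was low in it too.

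Partners of the kinesins on the same track also showed 0 genes called, where 0.00625% of all genes tested were called and 49.2% lay above 0. Of cargo adaptors such as the mitochondrial Trak and Rhot proteins and the JNK-interacting proteins, 33 were above the filter, 15 above 0 and 18 below, with a median of -0.01, and Trak2 was farthest from 0 at -0.10. Dynein and dynactin, the motor complex of the opposite direction, gave 8 genes above 0 and 13 below with a median of -0.01, and the actin-related dynactin subunit Actr1a was farthest at -0.11. Of the tubulins 3 lay above 0 and 12 below (median -0.02), with Tuba1c at -0.09. Microtubule-associated proteins and tubulin modifiers had 12 above 0 and 18 below (median -0.01), with Stmn1, a tubulin-sequestering protein, at -0.18 in the brightest of its 3 rows. None of these 4 lists had a gene with an unadjusted limma p under 0.05, beside 3.86% of all genes tested.

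In the list of intraflagellar transport and cilia, the cargo system of ciliary kinesin-2, 21 genes were above the filter, 5 above 0 and 16 below, with a median of -0.03. Their mean level was 6.95 and 6.95 in wildtype, 6.95 in knockout replicate 1 and 6.87 in knockout replicate 2, the array that stands apart. The part of that array in the lean below 0 was not tested. Bbs1, a subunit of the BBSome coat, was farthest at -0.46 (95% interval -0.73 to -0.19) and the only gene of the list with an unadjusted p under 0.05 (limma, unadjusted p = 0.00696, adjusted p = 1). It read 6.54 and 6.25 in wildtype and 5.94 and 5.92 in knockout. Both knockout arrays were low, and the wildtype arrays differed by about as much from each other as the lower one did from the knockout. Of the 10 cell division genes above the filter, 7 lay above 0 and 3 below (median 0.03). The spindle protein Nusap1 stood at 0.23 (95% interval -0.11 to 0.58) in the brightest of its 3 rows.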

How the data were processed

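The deposited table holds log2 expression values of 265511 transcript clusters on 4 arrays, per the range of the values themselves (4.16 to 14.26). How the authors normalized them, and with which software, is not given in the sources used here. Build mm9 is named in the submitters' processing notes. The platform annotation gave 1 symbol to 27090 rows, several to 2498 and none to 235923. Rows with several symbols named no gene. Per the labels' protocols a 3' in vitro transcription kit was used, which labels antisense RNA, while arrays of this type are built for sense-strand targets. The strand a row reports on is therefore unsettled, also for Kif16bos.

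Values were used as deposited. Genes with a brightest row above the 25th percentile (15995) were fitted together with limma (version 3.58.1, R 4.3.3, lmFit and eBayes, two-sided) with genotype as the only term, 2 residual degrees of freedom and a prior worth 2.98, and Benjamini-Hochberg adjustment over all of them. The fit was also run on simulated arrays with known changes and independent normal errors. These held no shift of knockout replicate 2 and no pairs, so they do not show how the fit handles either. The labels call the arrays biological replicates.

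The members, role classes and lists were chosen with earlier results of these data known. Named with values on every array were the kinesin-1 chains, Kif1a, Kif1b, Kif3a to Kif3c, Kif17, Kif21a, Kif2a, the cell division genes above the filter and the 5 highest and 5 lowest differences. From each list of partner genes the member farthest from 0 was named. Other kinesin genes were given a single value to complete their class, or are marked as picked after their values were seen. Alternatives were the replicate number as a block, 2 rescalings, 2 other filters, an intensity trend, the mean over rows, every row fitted singly and dropping 1 array at a time. The fit on rows placed by their neighbours was added after seeing the data. RefSeq tables of GRCm38.p6 gave chromosomes and promoters.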

Additional observations from a re-analysis of the deposited data

How the results depend on the processing

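Under all 13 alternatives 0 kinesin genes were called at an adjusted p under 0.05 by limma. Over all genes 1 was called, except that leaving out 1 array gave 0 to 1 (0 without knockout replicate 1 and 0 without knockout replicate 2). The 2 kinesin genes with an unadjusted p under 0.05 became 1 under the replicate block, with centred array medians and with the mean over rows, 0 under quantile normalization and with rows placed by their neighbours, and 0 to 1 with 1 array left out (1 without knockout replicate 2, and 0 without any of the other arrays). The median difference of the kinesin genes was -0.016 with centred medians and ran from -0.0079 to 0.028 with 1 array left out (0.013 without knockout replicate 2, and the highest without knockout replicate 1). The cause of these moves was not tested. The fit on rows placed by their neighbours was chosen after seeing the data.

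Signs turned in 28 of 260 values of named genes, of which 21 came from leaving out 1 array. Quantile normalization put Kif5a at 0.036, Kif1a at 0.020, Kif1b at 0.0057 and Kif22 at -0.013. Centred medians put Kif3c at -0.012 and Kif22 at -0.012. The mean over rows put Kif26a at -0.091. With 1 array left out the sign changed in 15 of 22 genes: Kif5a ran from -0.043 to 0.013, Kif5c from -0.037 to 0.012, Klc1 from -0.014 to 0.13, Klc3 from -0.053 to 0.046, Kif1a from -0.044 to 0.012, Kif1b from -0.054 to 0.022, Kif3a from -0.13 to 0.057, Kif3b from -0.050 to 0.014, Kif3c from -0.045 to 0.051, Kif17 from -0.31 to 0.14, Kif21a from -0.080 to 0.031, Kif2a from -0.073 to 0.018, Kif22 from -0.065 to 0.070, Kif12 from -0.017 to 0.15 and Kif16b from -0.076 to 0.012. Kif5b ran from -0.23 to -0.15 and Kifc5b from 0.11 to 0.21, without a change of sign.

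Arrays share a replicate number but no label says that it marks a litter. The correlation of the deviations of same-numbered arrays was 0.060 across genes, and the replicate block gave 837 genes with an unadjusted p under 0.05 against 617 without it, with 1 gene called in each fit.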

Other observations

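Markers of the cell types of the hippocampus gave 0 calls by limma after adjustment. Principal neuron markers had 4 genes above 0 and 8 below, with Prox1, a granule cell factor, farthest at -0.14. Their mean level was 7.77 in each of the wildtype arrays and in knockout replicate 1, and 7.70 in knockout replicate 2, the array that stands apart. Over all genes tested 49.2% lay above 0. Astrocyte markers had 4 above and 2 below (Gfap 0.09), oligodendrocyte markers 1 above and 5 below (Mog -0.12), microglial markers 3 above and 4 below (Aif1 0.13) and endothelial markers 1 above and 4 below (Slco1a4 -0.11). Interneuron markers had 4 above and 4 below. Among them Gad2, an enzyme of GABA synthesis, read 10.19 and 10.19 in wildtype and 9.995 and 10.04 in knockout (-0.17, 95% interval -0.30 to -0.03), with a limma adjusted p of 1. Gad2 and Slco1a4 have 3 rows each and Prox1 has 2, and only the brightest row is given.

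Of the farthest marker genes, those of the ventricle lining had the widest gaps. Ttr, the transthyretin gene of the choroid plexus, read 6.09 and 6.58 in wildtype and 5.73 and 5.86 in knockout (-0.54, 95% interval -0.98 to -0.10). The brightest of 2 rows of the ependymal gene Ccdc153 read 6.52 and 6.55 in wildtype and 6.82 and 6.67 in knockout (0.21, 95% interval 0.03 to 0.38). In each the genotypes did not overlap, beside 29% of all genes tested in either direction, and the limma adjusted p was 1. Both were named as the member of their list farthest from 0, a choice that favours such a gap. The wildtype arrays of Ttr differed more from each other than the lower one did from the knockout arrays. The knockout values of Ttr lay close to the filter level. Of the 7 choroid plexus markers 4 were below the filter, and of the 3 above it 1 lay above 0 (at 0.19) and 2 below, with a median of -0.03.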
